A study of Mus musculus with 23 samples.

Results

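A set of 7 genes of cholesterol efflux and of the liver X receptor (LXR) response was followed in primary endothelial cells of the mouse aorta, which form its inner lining. They are the cholesterol exporters Abca1 and Abcg1, the receptor Nr1h3, and Mylip, Lpcat3, Smpdl3a and Npc2, and they were taken by gene symbol from the annotation of the array. All 7 were measured, each by 1 probe set, out of 24704 named genes. Confluent cells were kept for 48 h in medium in which 10% mouse plasma replaced the serum. The plasma came from ApoE-Stab2-KO mice (6 arrays), ApoE-Stab1-KO mice (6 arrays), ApoE-KO mice (5 arrays) or wildtype mice (6 arrays), with C57BL/6J as the labelled strain of every sample. All 3 knockout donor groups lack apolipoprotein E and were fed Western Diet for 8 weeks. No diet is stated for wildtype donors, and in any comparison with wildtype plasma genotype and diet therefore cannot be told apart. Stab1 and Stab2 encode Stabilin-1 and Stabilin-2, scavenger receptors of sinusoidal endothelium. Each genotype belongs to the mice that gave plasma, while the cells themselves were bought as primary cells. The labels give neither donor age nor pooling of plasma, nor whether the replicates were separate cultures, so the p-values cover the spread among these arrays alone, and that spread may be technical.

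LXRs are nuclear receptors that bind oxysterols, the oxidised forms of cholesterol, and act on DNA together with a retinoid X receptor (RXR). When cell sterol is high they raise the genes that move cholesterol out of the cell, while the SREBP-2 pathway, which works when cell sterol is low, raises the genes of cholesterol synthesis and uptake. In endothelial cells, Abca1 and Abcg1 are known for handing cholesterol to apolipoprotein A-I and to high-density lipoprotein.

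LXR and RXR bind a repeat of the half-site AGGTCA with 4 bases between its copies, called DR4, and the promoter windows below are shown because Abca1 was the member that passed the test and the difference of Mylip from wildtype plasma had the opposite sign with ApoE-KO plasma. The windows are RefSeq sequence of GRCm38.p6 from 250 bases before to 50 bases after the annotated start, read 5′ to 3′ on the strand of the gene, and 5 of the 7 members had one. Abca1 is on the minus strand at chr4:53159846-53160145, and Mylip on the plus strand at chr13:45389492-45389791. Capitals mark the match to DR4.
Abca1: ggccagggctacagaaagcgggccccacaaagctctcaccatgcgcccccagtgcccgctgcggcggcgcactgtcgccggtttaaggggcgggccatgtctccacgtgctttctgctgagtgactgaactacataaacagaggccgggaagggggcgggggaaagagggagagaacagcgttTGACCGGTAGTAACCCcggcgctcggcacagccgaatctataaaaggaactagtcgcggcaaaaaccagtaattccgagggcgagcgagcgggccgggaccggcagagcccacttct
Mylip: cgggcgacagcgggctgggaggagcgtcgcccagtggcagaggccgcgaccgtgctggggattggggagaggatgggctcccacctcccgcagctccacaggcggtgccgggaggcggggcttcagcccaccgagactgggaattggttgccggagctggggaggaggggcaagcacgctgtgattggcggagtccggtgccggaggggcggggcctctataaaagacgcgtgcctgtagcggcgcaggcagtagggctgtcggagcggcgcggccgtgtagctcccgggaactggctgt
The search took AGGTCA, any 4 bases and AGGTCA again, on both strands, with at most 3 mismatches in the lettered positions. The Abca1 window held 1 match, at its bases 184 to 199, which reads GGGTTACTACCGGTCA on the opposite strand and has 3 mismatches. The windows of Mylip, Lpcat3, Npc2 and Nr1h3 held 0. Of 32851 windows of all genes, 21.9% held at least 1 such match, so a match at this tolerance is common. The TATA box letters TATAAA were found in the Abca1 and Mylip windows, and in 13.6% of all windows. The E-box letters CACGTG, which read the same on both strands, were in the Abca1 window alone among the 5 members, and in 7.15% of all windows. Neither of these motifs overlapped the DR4 match of Abca1, and the motifs were chosen after the sequences were seen.

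The 23 arrays held log2 values made by RMA, which normalizes arrays by quantiles, so each value is relative to the other genes of its array. Across genes, any 2 arrays had a correlation of 0.992 to 0.997. All 12 endothelial markers, Pecam1, Cdh5 and Vwf among them, lay above the median value of the arrays (4.33), as did 1 of 9 macrophage, 3 of 6 smooth muscle, 2 of 6 fibroblast and 1 of 5 liver cell markers. Averaged over the markers, the macrophage list lay between 4.38 and 4.46 with ApoE-Stab2-KO plasma, 4.37 and 4.44 with ApoE-Stab1-KO plasma, 4.41 and 4.50 with ApoE-KO plasma, and 4.35 and 4.46 with wildtype plasma, and 0 of its genes were called in any pairwise comparison. Of the 12 endothelial markers, 2 were called lower. Egfl7, a protein secreted by endothelium, differed by -0.27 for ApoE-KO minus wildtype (adjusted p = 0.00136) and by -0.21 for ApoE-Stab1-KO minus wildtype (adjusted p = 0.0122). Cldn5, a tight junction protein, differed by -0.27 for ApoE-KO minus wildtype (adjusted p = 0.0459), a call that 19 of 31 alternatives ended. The mean of the 12 markers lay between 10.85 and 11.05 with ApoE-KO plasma and between 11.03 and 11.09 with wildtype plasma, and its part in the differences of the 7 genes was not tested. ApoE-KO replicate 1 was stored with finer decimals than the rest (4.21% of its values lay on the binary grid that held 100% of the values of each other array), and its Abca1 value stood apart. ApoE-Stab1-KO replicate 1 had the lowest array weight (0.38), a limma measure of how well an array follows its group.

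Abca1, the exporter that loads cholesterol and phospholipid onto lipid-poor apolipoprotein A-I, was the member that changed. It fell with ApoE-KO plasma, to 0.736 of its level with wildtype plasma. Abca1 measured 8.37, 7.89, 7.89, 7.73 and 7.75 on the log2 scale in ApoE-KO replicates 1 to 5. In ApoE-Stab2-KO plasma it lay between 8.01 and 8.14 (median 8.07), in ApoE-Stab1-KO plasma between 8.11 and 8.32 (median 8.17), and in wildtype plasma between 8.29 and 8.50 (median 8.36). ApoE-KO replicates 2 to 5 were thus lower than every other array of the series, while replicate 1 was within the wildtype range.

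With ApoE-KO plasma Abca1 had a mean level of 7.93 ± 0.26 (SD, n = 5), against 8.37 ± 0.07 (SD, n = 6) in wildtype plasma. The log2 difference was -0.44 ± 0.08 (SE), with a limma Benjamini-Hochberg adjusted p of 0.00654. In that comparison 0.53% of all genes were called, in either direction, 0.34% were called higher and 0.19% were called lower, against 1 of the 7 members, Abca1. The call held without each array in turn (adjusted p 9.82e-06 to 0.0283). It did not hold when the fit used the 11 arrays of these groups alone, where the same difference had an adjusted p of 0.0852. In bulk RNA, fewer cells with a transcript and less of it per cell cannot be told apart.

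ApoE-Stab2-KO and ApoE-Stab1-KO plasma gave intermediate mean levels of Abca1. The mean was 8.07 ± 0.06 (SD, n = 6) with ApoE-Stab2-KO plasma, a difference from wildtype plasma of -0.30 ± 0.07 (SE, adjusted p = 0.137). All 6 ApoE-Stab2-KO arrays lay below all 6 wildtype arrays, as for 0.514% of genes in that comparison, yet the difference did not pass the test. ApoE-Stab1-KO plasma gave a mean of 8.18 ± 0.08 (SD, n = 6), where 5 of 6 arrays lay below all wildtype arrays and the difference from wildtype plasma was -0.18 ± 0.07 (SE, adjusted p = 0.343). Against ApoE-KO plasma, the difference of ApoE-Stab1-KO plasma was 0.26 ± 0.08 (adjusted p = 0.737) and that of ApoE-Stab2-KO plasma 0.15 ± 0.08 (adjusted p = 0.654). Ordered by mean level, the groups were ApoE-KO, ApoE-Stab2-KO, ApoE-Stab1-KO and wildtype plasma, and no pair of neighbours in this order differed past the threshold, with gaps of 0.15, 0.11 and 0.18. Over all 4 groups together, the moderated F-test called Abca1 (adjusted p = 0.0251) and 0 of the other 6 members, against 0.546% of all genes. That call of Abca1 was lost without any 1 of 8 arrays, namely ApoE-KO replicates 2 to 5 and wildtype replicates 2, 3, 4 and 6 (adjusted p 0.0516 to 0.0668), and with the replicate number as a block (0.0553). With array weights the F-test also called Mylip (0.0466).

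**Figure D1:**
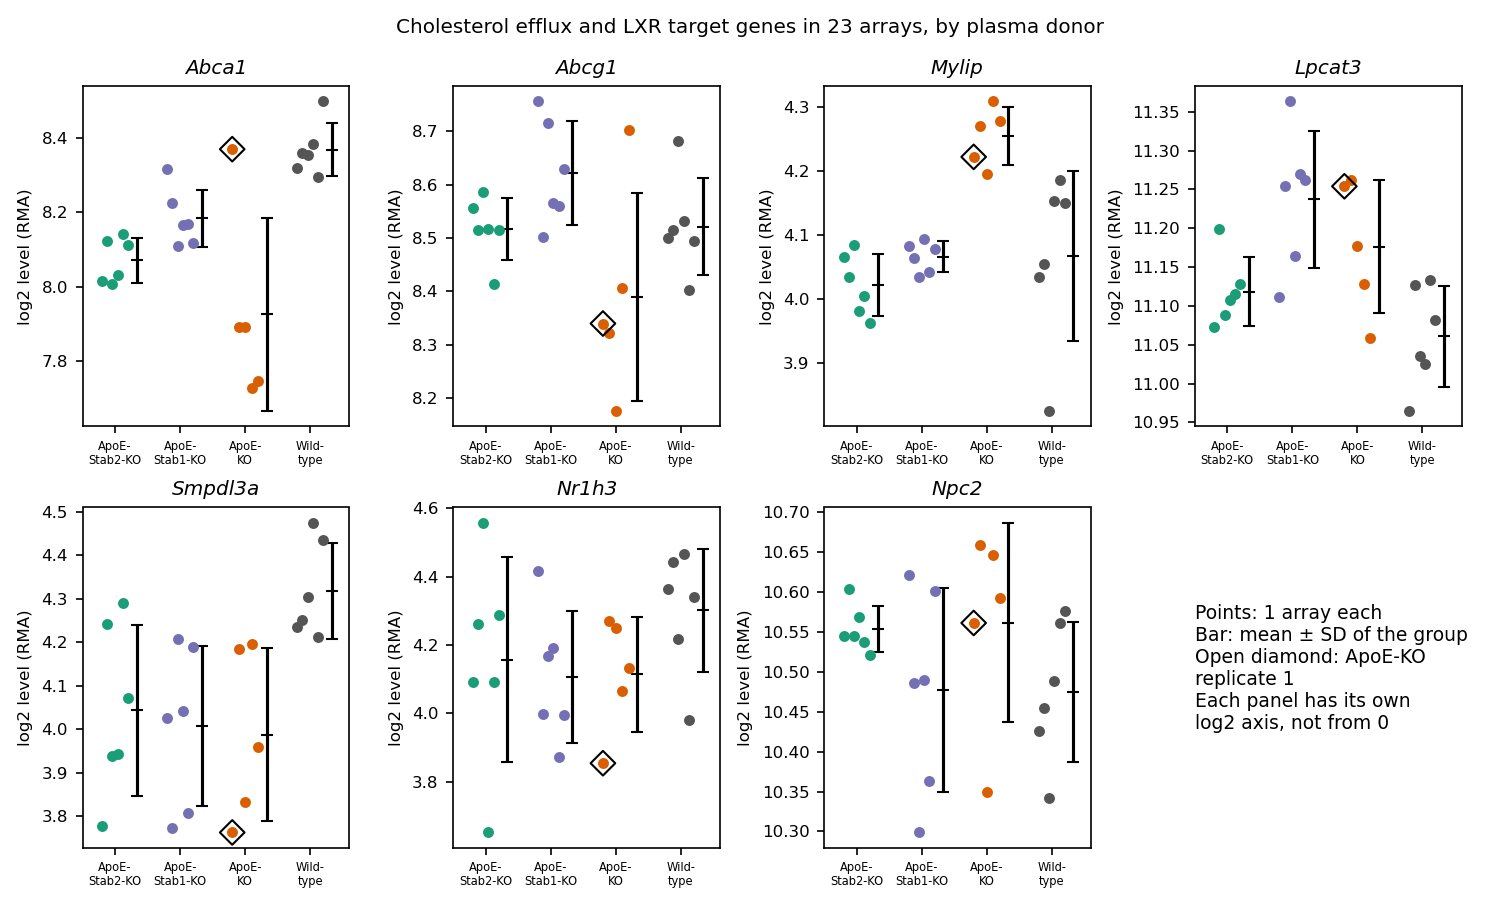
The log2 level of each of the 7 genes (y axes, RMA values, each panel with its own range) is plotted for the 23 arrays by plasma donor group; a point is 1 array, the bar is the group mean ± SD, and the open diamond marks ApoE-KO replicate 1. For Abca1 that array lies at 8.37 while the other 4 ApoE-KO arrays lie between 7.73 and 7.89, below every array of the other groups.

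Each of these comparisons was also made without ApoE-KO replicate 1, since the spread of that group enters the shared error of all of them. The array was singled out by its Abca1 value, the value under test, so leaving it out widens the difference and narrows the error by construction, and the p-values without it describe the other 22 arrays and are no independent support. Without it, Abca1 averaged 7.82 ± 0.09 (SD, n = 4) with ApoE-KO plasma, and the difference from wildtype plasma was -0.55 ± 0.05 (SE, adjusted p = 9.82e-06, 0.364% of all genes called). ApoE-Stab1-KO minus ApoE-KO plasma was then 0.37 ± 0.05 (adjusted p = 0.0109), where 0.00405% of all genes were called, which is 1 gene and therefore Abca1 itself. ApoE-Stab2-KO minus wildtype plasma was -0.30 ± 0.05 (adjusted p = 0.00408, 0.166% of all genes called).

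The remaining differences of Abca1 did not pass in the 22 arrays either. They were 0.26 ± 0.05 for ApoE-Stab2-KO minus ApoE-KO (adjusted p = 0.15, 0% of all genes called), -0.18 ± 0.05 for ApoE-Stab1-KO minus wildtype (adjusted p = 0.0913, 0.328% called) and -0.11 ± 0.05 for ApoE-Stab2-KO minus ApoE-Stab1-KO (adjusted p = 0.393, 0.0607% called). The F-test then called Abca1 at an adjusted p of 9.81e-05, with 0.429% of all genes called. Over all genes, the deviations of ApoE-KO replicate 1 from the mean of the other 4 arrays of its group had an SD of 0.14. Those of the other ApoE-KO arrays had SDs of 0.14 to 0.17. The array weight of replicate 1, 1.33, was the highest of the 5. The sterol synthesis gene Hmgcs1 measured 10.06 in this array, against 9.79 to 9.92 in the other 4 ApoE-KO arrays. In wildtype arrays it lay between 9.25 and 9.47. What set Abca1 apart in this array was not tested.

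**Figure D2:**
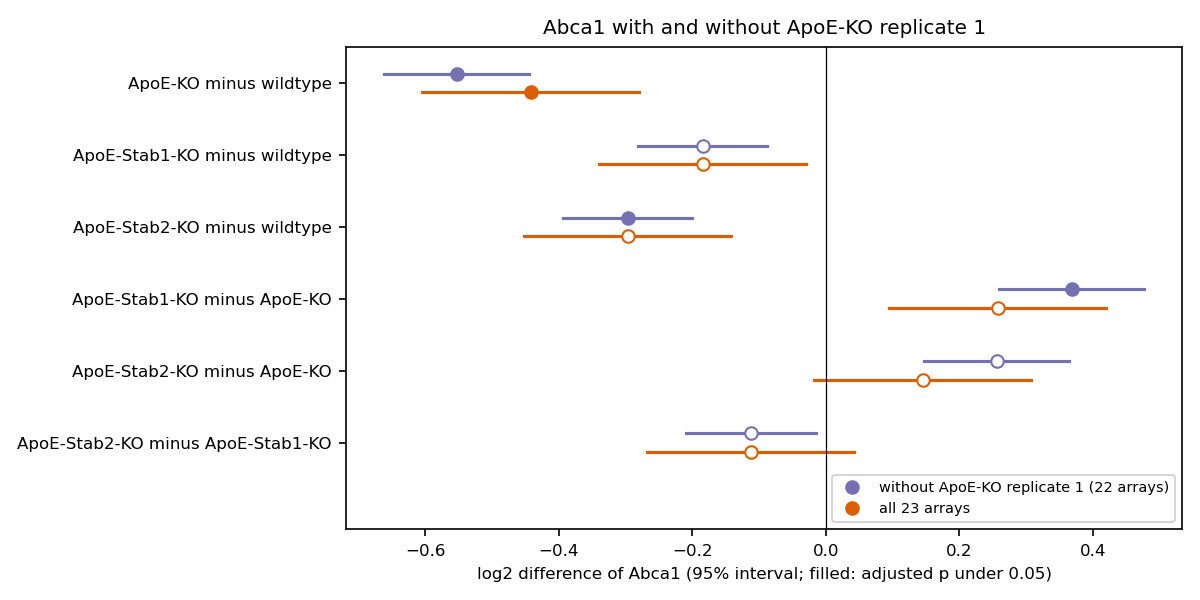
The log2 difference of Abca1 in each of the 6 comparisons (x axis, with its 95% interval from limma) is plotted without ApoE-KO replicate 1 (22 arrays, purple) and with all 23 arrays (orange); filled points had an adjusted p under 0.05. With all arrays only ApoE-KO minus wildtype passed, and without replicate 1 ApoE-Stab2-KO minus wildtype and ApoE-Stab1-KO minus ApoE-KO passed as well.

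Abcg1, the exporter that moves cholesterol to high-density lipoprotein, did not pass in any comparison. Its level was 8.34, 8.32, 8.18, 8.41 and 8.70 in ApoE-KO replicates 1 to 5, and it ranged from 8.41 to 8.59 (median 8.52) with ApoE-Stab2-KO plasma, 8.50 to 8.76 (median 8.60) with ApoE-Stab1-KO plasma and 8.40 to 8.68 (median 8.51) with wildtype plasma. The groups overlapped throughout, and the highest ApoE-KO array lay above all wildtype arrays. The difference of ApoE-KO from wildtype plasma was -0.13 ± 0.07 (adjusted p = 0.534, 95% interval -0.28 to 0.01). It was -0.21 without ApoE-KO replicate 5, the array at 8.70 (adjusted p = 0.122), and -0.08 without replicate 3, the array at 8.18 (adjusted p = 0.784). The largest difference of Abcg1 was between ApoE-Stab1-KO and ApoE-KO plasma, at 0.23 ± 0.07 (adjusted p = 0.729, 95% interval 0.09 to 0.38 for that comparison alone). For ApoE-Stab2-KO minus ApoE-KO plasma it was 0.13 ± 0.07 (adjusted p = 0.657), with 0.21 without ApoE-KO replicate 5 and 0.07 without replicate 3, and the means with ApoE-Stab2-KO and wildtype plasma were 8.52 each. The F-test of Abcg1 had an adjusted p of 0.333, and of 0.0531 without ApoE-KO replicate 5. Over the 23 arrays the values of Abca1 and Abcg1 correlated at r = 0.15, and at r = -0.25 once each group's mean was removed, which describes these arrays only.

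Nr1h3 encodes LXR alpha, and the gene of the other LXR, Nr1h2, was not analysed here. Nr1h3 lay mostly below the median value of the arrays, where an array separates signal from background poorly. It measured 3.85, 4.27, 4.25, 4.06 and 4.13 with ApoE-KO plasma, 3.65 to 4.56 (median 4.18) with ApoE-Stab2-KO plasma, 3.87 to 4.42 (median 4.08) with ApoE-Stab1-KO plasma and 3.98 to 4.47 (median 4.35) with wildtype plasma. Every group overlapped every other. The differences from wildtype plasma were -0.14 ± 0.12 for ApoE-Stab2-KO, -0.19 ± 0.12 for ApoE-Stab1-KO and -0.19 ± 0.12 for ApoE-KO plasma (adjusted p = 0.792, 0.567 and 0.657). The standard errors of Nr1h3 were the widest of the 7, and its 95% interval for ApoE-KO minus wildtype, -0.44 to 0.07, includes changes as large as that of Abca1.

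Mylip encodes a ubiquitin ligase, also called IDOL, that LXR induces and that marks lipoprotein receptors such as Vldlr and Lrp8 for degradation. Its mean was highest with ApoE-KO plasma, where that of Abca1 was lowest. The means of the other 3 groups lay close together. The gap was 0.04 from ApoE-Stab2-KO to ApoE-Stab1-KO plasma (limma adjusted p = 0.795) and 0.00098 from ApoE-Stab1-KO to wildtype plasma (adjusted p = 0.998). Mylip measured 4.22, 4.27, 4.19, 4.31 and 4.28 in ApoE-KO replicates 1 to 5, against 3.96 to 4.08 (median 4.02) with ApoE-Stab2-KO plasma, 4.03 to 4.09 (median 4.07) with ApoE-Stab1-KO plasma and 3.82 to 4.19 (median 4.10) with wildtype plasma. The 5 ApoE-KO arrays were higher than the other 18 arrays without overlap. Groups apart in this way were found for 1.08% of genes for ApoE-KO higher than wildtype, 0.198% for ApoE-Stab1-KO lower than ApoE-KO and 0.781% for ApoE-Stab2-KO lower than ApoE-KO.

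None of these differences of Mylip passed over all genes. They were 0.19 ± 0.05 for ApoE-KO minus wildtype (adjusted p = 0.108), -0.19 ± 0.05 for ApoE-Stab1-KO minus ApoE-KO (adjusted p = 0.585) and -0.23 ± 0.05 for ApoE-Stab2-KO minus ApoE-KO (adjusted p = 0.156), and the F-test gave an adjusted p of 0.0794. Without wildtype replicate 3, the array with the lowest Mylip value of the series (3.82), the last of these passed (adjusted p = 0.0307). All Mylip values lay below the median value of the arrays, where an array separates signal from background poorly.

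Lpcat3 encodes the acyltransferase that puts polyunsaturated chains into phospholipids, and it was measured well above the median value. Its level was 11.25, 11.26, 11.18, 11.13 and 11.06 with ApoE-KO plasma, 11.07 to 11.20 (median 11.11) with ApoE-Stab2-KO plasma, 11.11 to 11.36 (median 11.26) with ApoE-Stab1-KO plasma and 10.96 to 11.13 (median 11.06) with wildtype plasma. All groups overlapped. The mean was highest with ApoE-Stab1-KO plasma, at 0.18 ± 0.05 above wildtype (adjusted p = 0.1). That difference passed without ApoE-Stab1-KO replicate 1 (0.20, adjusted p = 0.0454). The differences of ApoE-Stab2-KO and ApoE-KO from wildtype plasma were 0.06 ± 0.05 and 0.12 ± 0.05 (adjusted p = 0.791 and 0.387).

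Smpdl3a encodes a phosphodiesterase that LXR induces in human macrophages. Its mean over all arrays was 4.09, below the median value of the arrays, where an array separates signal from background poorly. Smpdl3a was lower with all 3 ApoE-deficient plasmas than with wildtype plasma in its mean, by similar amounts. It measured 3.76, 4.18, 3.83, 4.20 and 3.96 with ApoE-KO plasma, 3.78 to 4.29 (median 4.01) with ApoE-Stab2-KO plasma, 3.77 to 4.21 (median 4.03) with ApoE-Stab1-KO plasma and 4.21 to 4.47 (median 4.28) with wildtype plasma. The ApoE-KO and ApoE-Stab1-KO arrays all lay below the wildtype arrays, as for 0.891% and 0.385% of genes in those comparisons, and the ApoE-Stab2-KO arrays overlapped them. The differences from wildtype plasma were -0.27 ± 0.10 for ApoE-Stab2-KO, -0.31 ± 0.10 for ApoE-Stab1-KO and -0.33 ± 0.10 for ApoE-KO plasma, and none passed (adjusted p = 0.374, 0.181 and 0.163). These 3 comparisons share the 6 wildtype arrays. Among the knockout plasmas the differences of Smpdl3a were between 0.02 and 0.06 (SE 0.10 each).

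Npc2 encodes the soluble lysosomal protein that passes cholesterol to the membrane protein NPC1, which lets it leave the lysosome. Its level was 10.56, 10.66, 10.35, 10.65 and 10.59 with ApoE-KO plasma, and ranged from 10.52 to 10.60 with ApoE-Stab2-KO, 10.30 to 10.62 with ApoE-Stab1-KO and 10.34 to 10.58 with wildtype plasma. The 4 groups overlapped. Its group means spanned 0.09, the narrowest of the 7 members, and its adjusted p-values lay between 0.673 and 0.995. For ApoE-KO minus wildtype plasma the 95% interval was -0.04 to 0.21, which leaves out a fall of the size seen for Abca1.

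**Figure D3:**
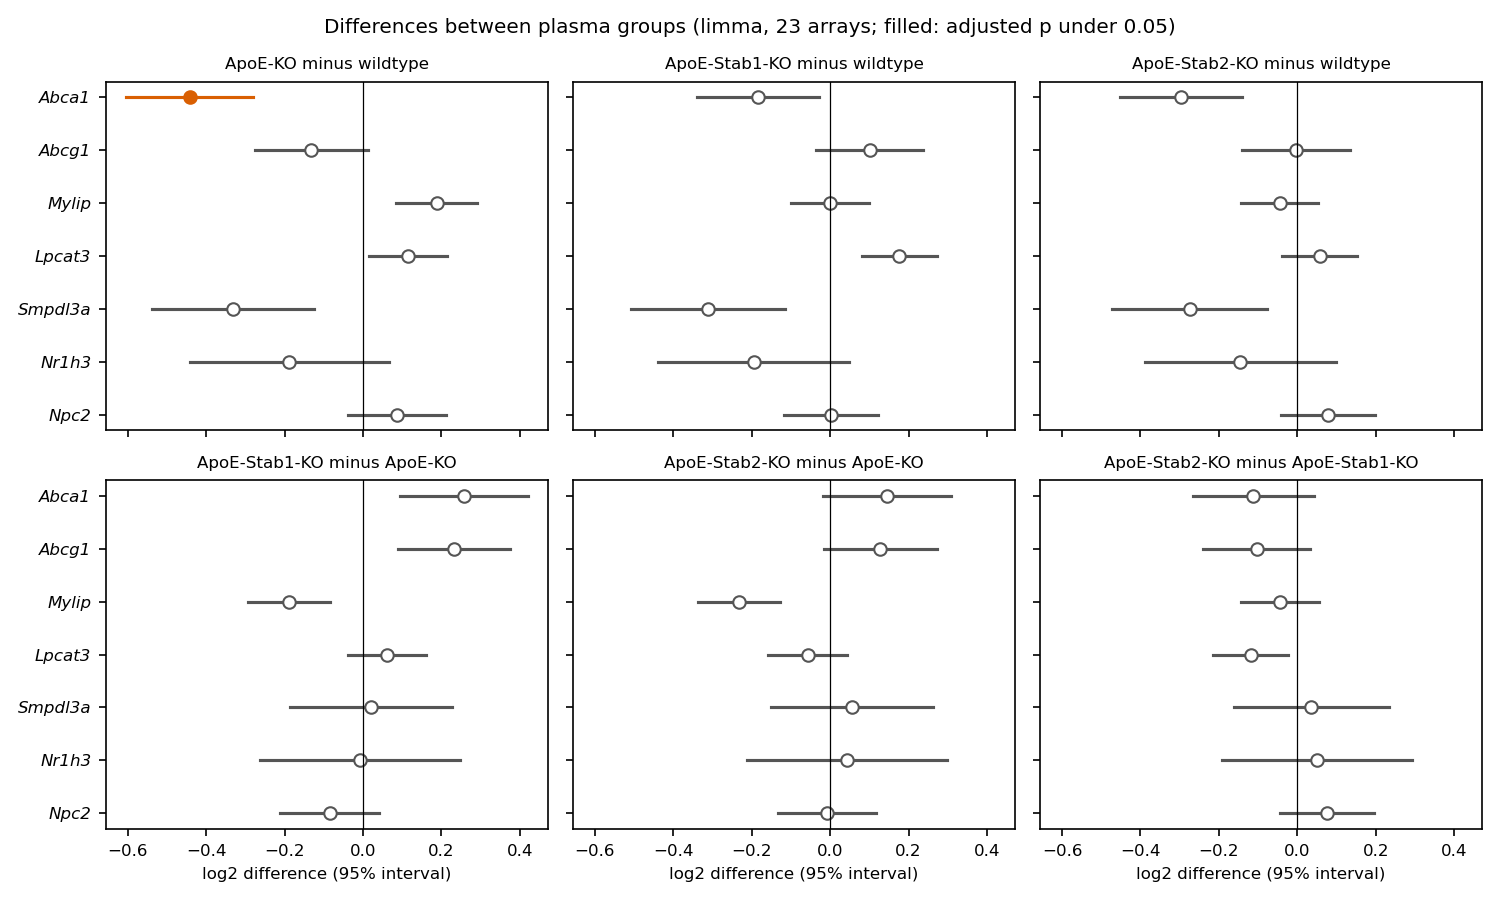
The log2 difference of each of the 7 genes (rows) is plotted for the 6 comparisons (panels), with its 95% interval from limma on 23 arrays (x axis); the filled point had an adjusted p under 0.05. Abca1 in ApoE-KO minus wildtype plasma (-0.44) is the 1 filled point, and Mylip lies to the right of 0 in that panel and to the left in both panels against ApoE-KO plasma.

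Counted over the 7 members, ApoE-KO against wildtype plasma had 0 called higher, 1 called lower and 6 not past the threshold, with a median log2 difference of -0.13, where the median over all genes was 0.00. The other 5 comparisons had 0 of 7 called, while limma called 0.364% of all genes for ApoE-Stab1-KO minus wildtype, 0.178% for ApoE-Stab2-KO minus wildtype, 0.00405% for ApoE-Stab1-KO minus ApoE-KO, 0.0243% for ApoE-Stab2-KO minus ApoE-KO and 0.0486% for ApoE-Stab2-KO minus ApoE-Stab1-KO. At an unadjusted p under 0.05, 4 of 7 members passed for ApoE-KO minus wildtype, where 10.5% of all genes did. Of the 4, Abca1 and Smpdl3a were lower and Mylip and Lpcat3 higher. For ApoE-Stab1-KO minus wildtype 3 of 7 passed (11.3% of genes), for ApoE-Stab2-KO minus wildtype 2 of 7 (8.49%). For ApoE-Stab1-KO minus ApoE-KO it was 3 of 7 (5.57%), and for ApoE-Stab2-KO minus ApoE-KO 1 of 7 (8.36%). For ApoE-Stab2-KO minus ApoE-Stab1-KO it was 1 of 7 (11%). The members were chosen with earlier results of these data known, so setting their counts beside the shares of all genes is no test of the set.

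The genes around LXR were read from 6 further lists with 62 measured genes, and 10 listed genes, Nr1h2 among them, were not analysed here. Of 8 RXR and cofactor genes, 0 passed in any comparison, with Rxra, a partner of LXR, at -0.16 ± 0.06 for ApoE-KO minus wildtype plasma (adjusted p = 0.302). Of 19 genes listed as other LXR targets, 1 rose and 18 did not pass with ApoE-KO plasma, and 0 passed in the other 5 comparisons. Each gene was put in 1 list only, so genes of the other lists may be LXR targets too, and these counts depend on that choice. The gene that rose was Scd1, a fatty acid desaturase that SREBPs also control (0.43 ± 0.08, adjusted p = 0.0111). Srebf1, an LXR target that encodes SREBP-1, differed by 0.05 ± 0.06 in that comparison (adjusted p = 0.848). The median log2 difference over these 19 genes was 0.04.

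Of 17 genes of cholesterol transport, storage and other efflux, 1 fell with ApoE-KO plasma and 16 did not pass. It was Gramd1b, which encodes a carrier of cholesterol from the plasma membrane to the endoplasmic reticulum. In ApoE-KO arrays Gramd1b averaged 6.94 ± 0.05 (SD, n = 5), against 7.20 ± 0.05 (SD, n = 6) in wildtype arrays, with no overlap, and the difference was -0.26 ± 0.06 (adjusted p = 0.0397). The call was lost in 14 of 31 alternatives, among them each in which 1 ApoE-KO array was left out (adjusted p up to 0.119). Npc1, the lysosomal partner of Npc2, differed by 0.15 ± 0.06 (adjusted p = 0.35) and Scarb1, the high-density lipoprotein receptor, by -0.02 ± 0.06 (adjusted p = 0.958). Of 7 enzymes that make or use oxysterols, 0 passed, while all 7 differences for ApoE-KO minus wildtype were negative, with a median of -0.08. The most negative was that of Cyp46a1, a cholesterol hydroxylase known from neurons (-0.27 ± 0.07, unadjusted p = 0.000986, adjusted p = 0.103). Hsd3b7, an enzyme of bile acid synthesis, differed by -0.13 ± 0.05 (adjusted p = 0.28), Ch25h, a cholesterol hydroxylase, by -0.01 ± 0.09 (adjusted p = 0.993) and Cyp27a1, a mitochondrial sterol hydroxylase, by -0.05 ± 0.12 (adjusted p = 0.938).

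Of the lipoprotein receptors that the Mylip protein marks for degradation, Lrp8 rose with ApoE-KO plasma and Vldlr did not pass. Lrp8 lay between 8.74 and 8.83 with ApoE-KO plasma and between 8.48 and 8.60 with wildtype plasma, without overlap. Its difference was 0.24 ± 0.04 (adjusted p = 0.00654), and that of Vldlr was 0.09 (adjusted p = 0.571). Against wildtype plasma, Lrp8 did not pass with ApoE-Stab2-KO (0.15, adjusted p = 0.172) or ApoE-Stab1-KO plasma (0.16, adjusted p = 0.0838).

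**Figure D4:**
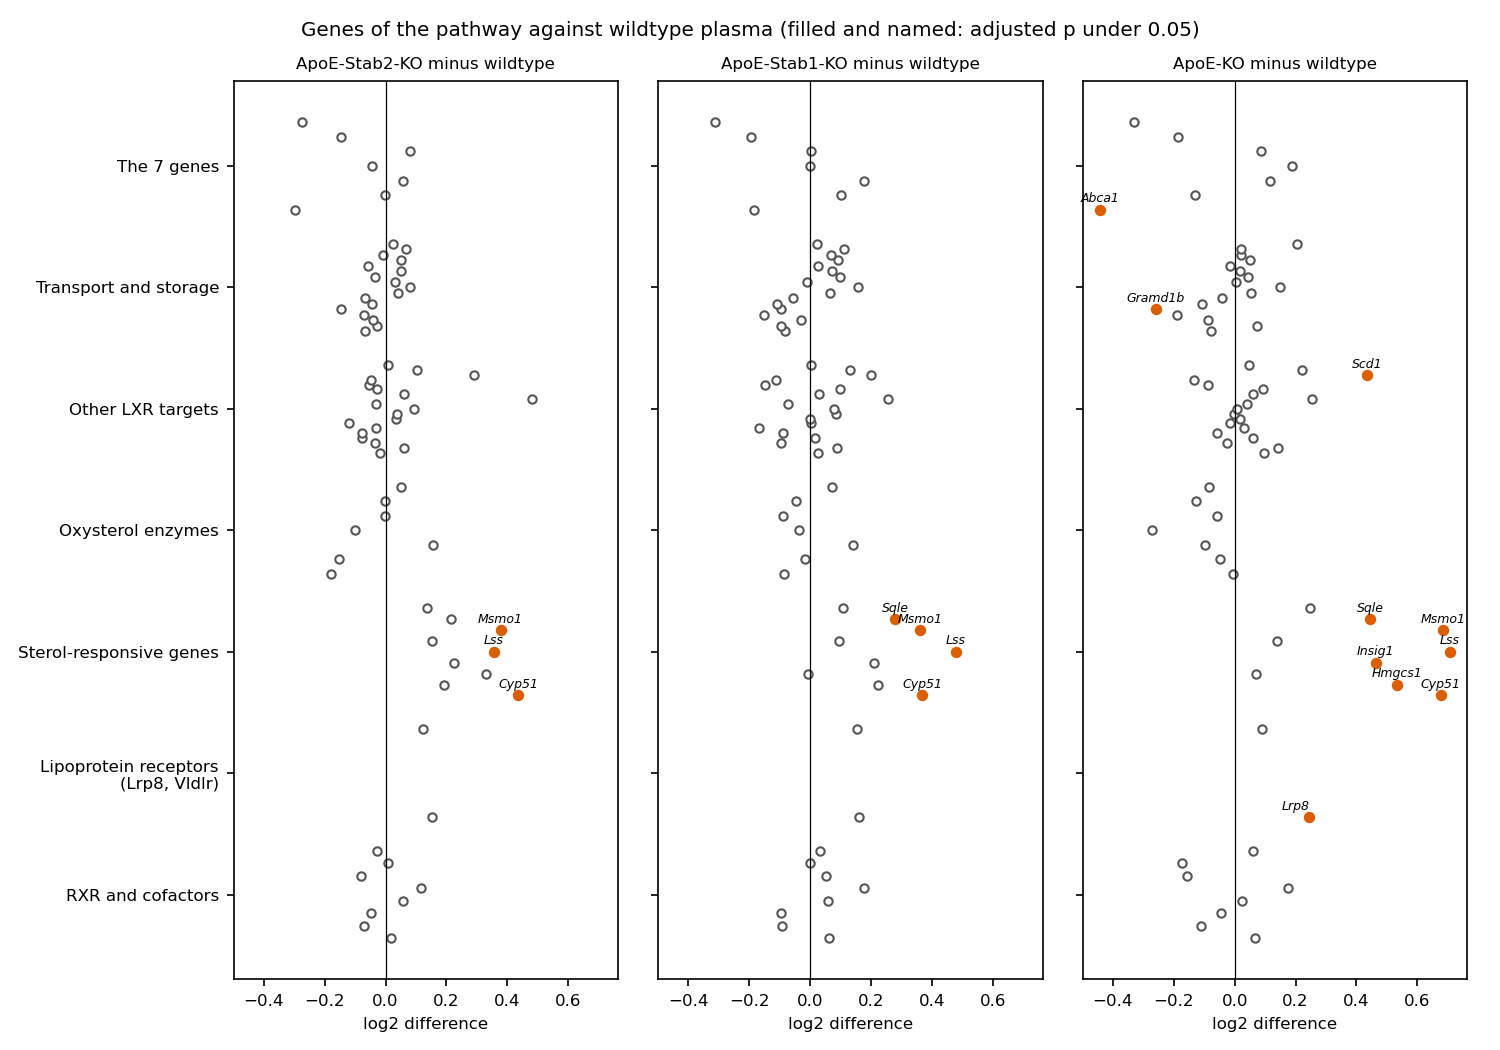
The log2 difference from wildtype plasma (x axis) of each measured gene of the 7 lists (rows; 1 point is 1 gene) is plotted for ApoE-Stab2-KO, ApoE-Stab1-KO and ApoE-KO plasma (panels); filled and named points had an adjusted p under 0.05. With ApoE-KO plasma Abca1 and Gramd1b lie on the left and Scd1, Lrp8 and 6 of 9 sterol-responsive genes on the right, while with the other plasmas the named points are sterol-responsive genes only.

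The 9 measured sterol-responsive genes, targets or parts of the SREBP-2 pathway, included 6 that rose where Abca1 fell. With ApoE-KO plasma 6 of the 9 rose, 0 fell and 3 did not pass, and the median difference from wildtype plasma was 0.46. With ApoE-Stab1-KO plasma 4 rose and with ApoE-Stab2-KO plasma 3 rose, with medians of 0.22 each. The 6 that rose with ApoE-KO plasma were Lss (0.71 ± 0.07, adjusted p = 8.99e-06), Msmo1 (0.69 ± 0.06, 2.85e-06), Cyp51 (0.68 ± 0.07, 8.99e-06) and Sqle (0.45 ± 0.05, 8.27e-05), enzymes of the later steps of sterol synthesis, Hmgcs1 (0.53 ± 0.06, 1.22e-05) and the SREBP regulator Insig1 (0.46 ± 0.06, 0.000296). Those that rose with ApoE-Stab1-KO plasma were Lss (0.48), Cyp51 (0.37), Msmo1 (0.36) and Sqle (0.28), and with ApoE-Stab2-KO plasma Cyp51 (0.44), Msmo1 (0.38) and Lss (0.36). Between ApoE-Stab2-KO and ApoE-KO plasma, Hmgcs1 was the listed gene that passed, and it fell (-0.34 ± 0.06, adjusted p = 0.026). That call was lost in 12 of 31 alternatives, among them without ApoE-KO replicate 1 (-0.30, adjusted p = 0.104), without any 1 of ApoE-KO replicates 2 to 4 or of the ApoE-Stab2-KO arrays, and with the replicate number as a block (adjusted p = 0.0981). Set side by side in the same arrays, Hmgcs1, which encodes the synthase of HMG-CoA, averaged 9.55, 9.58, 9.89 and 9.36 with ApoE-Stab2-KO, ApoE-Stab1-KO, ApoE-KO and wildtype plasma, where Abca1 averaged 8.07, 8.18, 7.93 and 8.37. The groups with the highest and lowest mean of Hmgcs1 were thus those with the lowest and highest mean of Abca1. For Hmgcs1 the middle groups did not follow this, since both means were higher with ApoE-Stab1-KO than with ApoE-Stab2-KO plasma. Hmgcs1 is 1 of the 9 genes, and this step differed among them. ApoE-Stab2-KO minus ApoE-Stab1-KO was negative for 3, Hmgcs1, Sqle and Lss, and positive for 6, with 0 called. The full order of the other genes was not set beside that of Abca1. The arrays fell into groups on both genes, so no correlation is given over all of them. ApoE-KO replicate 1 had the highest Hmgcs1 value of the series, while its Abca1 value was within the wildtype range. It had the highest value of the ApoE-KO group for 5 of the 9 genes and the lowest for 0. Mir33, a microRNA gene within Srebf2 whose product is known to target Abca1, averaged 3.01 with ApoE-KO plasma and 2.87 with wildtype plasma. Both lay well below the median value, and the difference was 0.14 (adjusted p = 0.576). The mature microRNA was not measured separately. The host gene Srebf2 differed by 0.25 (adjusted p = 0.0756).

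**Figure D5:**
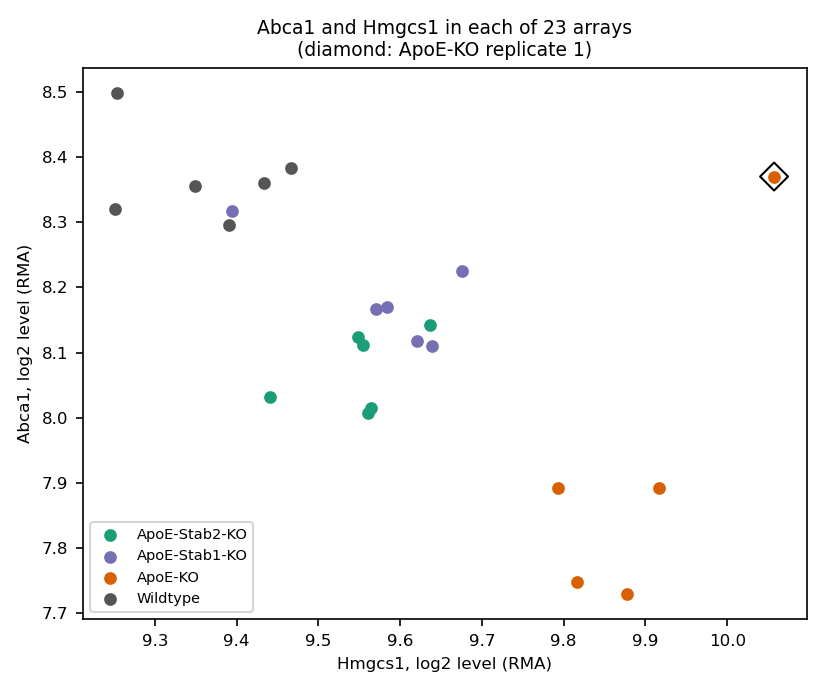
The log2 level of Abca1 (y axis) is plotted against that of Hmgcs1 (x axis) for the 23 arrays, coloured by plasma donor group; the diamond marks ApoE-KO replicate 1. Wildtype arrays lie at the upper left and ApoE-KO replicates 2 to 5 at the lower right, with ApoE-Stab1-KO and ApoE-Stab2-KO arrays mostly between them, while ApoE-KO replicate 1 lies at 10.06 and 8.37 in the upper right.

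Among all named genes, those whose values followed Abca1 most closely over the 23 arrays were Adamts9, a matrix protease (r = 0.80), Ednrb, an endothelin receptor (r = 0.77), and Lama3, a laminin chain (r = 0.77). With each group's mean removed, these were 0.48, 0.77 and 0.47. The lowest values belonged to Cenpm, a centromere protein (r = -0.76), the transcription factor Jun (r = -0.74) and the growth factor Nrg1 (r = -0.74), and were -0.64, -0.42 and -0.31 with the group means removed. For the other members the highest were Naip5 for Abcg1 (r = 0.77), Card14 for Mylip (r = 0.80), Usp29 for Lpcat3 (r = 0.87), Nr4a1 for Smpdl3a (r = 0.76), Stxbp2 for Nr1h3 (r = 0.70) and Snap29 for Npc2 (r = 0.82). These are the extremes of 24704 genes over arrays that share groups and a normalization, and they are given as a description. Between the members themselves r lay between -0.43 (Abcg1 and Mylip) and 0.48 (Mylip and Npc2).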

How the data were processed

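RNA of the cells was hybridised as biotin-labelled cRNA to Affymetrix arrays, per the labels' protocols. The deposited table holds log2 values of 25428 probe sets on 23 arrays, made by the authors with RMA, per the submitters' processing notes; no version or probe build was found in the labels. The platform annotation gave 24705 probe sets 1 symbol, 0 several and 723 none. The brighter of 2 probe sets with 1 symbol was kept, leaving 24704 genes. Groups came from the labels.

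Group means over all 23 arrays were fitted with limma 3.58.1 in R 4.3.3 (lmFit and eBayes, no trend, not robust, no filter), with residual degrees of freedom of 19 and prior ones of 4.19. P-values of the F-test and of each of 6 contrasts were adjusted over 24704 genes by the Benjamini-Hochberg method, with calls at an adjusted p under 0.05. Errors of differences are standard errors of this fit, and 95% intervals are for 1 comparison at a time. The number of arrays limits the precision: the median SE of a difference was 0.07. The fit was tested on simulated data. Alternatives were renormalization, centring, a level filter, trend and robust settings, array weights, a replicate block, probe sets as features, 2 groups per fit and leaving out each array. Same-numbered arrays of 2 groups had deviations that correlated at -0.10 to 0.11 over genes (33 pairs, 1 of them over 0.1), so the numbers were not taken to pair the samples.

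The 7 members, the 6 lists, the tests and the motifs were chosen with earlier results of these data known. Named genes were the members, every list gene called anywhere, 8 fixed genes, and the genes most correlated with each member (3 highest and 3 lowest for Abca1, 1 for each other), without predicted, Riken or small RNA symbols. Vldlr, Srebf2, Mir33, Cyp46a1, Hsd3b7 and the called markers were named after their values were seen. Plots used matplotlib 3.10.9 under Python 3.11.15.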

Additional observations from a re-analysis of the deposited data

Results flagged for a closer look

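Abca1 in ApoE-KO replicate 1 measured 8.37 on the log2 scale, and its gap to the nearest of the other 4 ApoE-KO arrays (7.73 to 7.89) took up 0.745 of the range of the group, more than Dixon's 95% critical value of 0.71 for 5 samples. It was 1 of 28 pairings of a member with a plasma group that were looked at, and chance gives such a gap in about 1 of 20 groups. Over all genes, 0.862% had such a gap in this array, against 0.862% to 1.79% in the other ApoE-KO arrays. The array was also the one stored with finer decimals, and whether that bears on its Abca1 value was not tested.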

How the results depend on the processing

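Each of the 42 differences of a member in a comparison was recomputed under 8 alternatives and without each of the 23 arrays. For 9 of the 42, the sign changed in at least 1 recomputed value, with neither value called. Of 1284 recomputed values, 1277 kept their call or stayed without one, and 0 called values were reversed. The 7 that changed were Abca1 for ApoE-KO minus wildtype with the arrays of those groups alone (not called, adjusted p = 0.0852), Abca1 for ApoE-Stab2-KO minus wildtype with the arrays of those groups alone (called, 0.0143) or without ApoE-KO replicate 1 (0.00408), Abca1 for ApoE-Stab1-KO minus ApoE-KO without ApoE-KO replicate 1 (0.0109), Lpcat3 for ApoE-Stab1-KO minus wildtype with trend and robust settings (0.0466) or without ApoE-Stab1-KO replicate 1 (0.0454), and Mylip for ApoE-Stab2-KO minus ApoE-KO without wildtype replicate 3 (0.0307). The count of members called therefore became 0 of 7 for ApoE-KO minus wildtype and 1 of 7 for ApoE-Stab2-KO minus wildtype with 2 groups per fit, and 1 of 7 for ApoE-Stab1-KO minus wildtype with trend and robust settings. With arrays left out in turn it was 1 throughout for ApoE-KO minus wildtype, 0 throughout for ApoE-Stab2-KO minus ApoE-Stab1-KO and 0 to 1 in the other 4 comparisons. For the F-test it was 2 with array weights (Abca1 and Mylip), 0 with the replicate block (Abca1 adjusted p = 0.0553) and 0 to 1 with arrays left out (without wildtype replicate 3 it was Mylip, 0.019); the call of Abca1 ended without ApoE-KO replicates 2, 3, 4 or 5 (0.0516 to 0.0635) or wildtype replicates 2, 3, 4 or 6 (0.0535 to 0.0668), and the cause was not tested.

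Counts over all genes moved more. For ApoE-KO minus wildtype, 131 genes were called, 212 with array weights, 80 with the 2 groups alone and 55 to 158 with arrays left out. For ApoE-Stab1-KO minus wildtype there were 90, 151 among genes above the median level, 21 with the 2 groups alone and 54 to 124 with arrays left out, and for ApoE-Stab2-KO minus wildtype 44, and 20 to 55 with arrays left out. For ApoE-Stab1-KO minus ApoE-KO there was 1 gene, 2 with trend and robust settings, 0 with the 2 groups alone or the replicate block and 0 to 2 with arrays left out, beside 1377 at an unadjusted p under 0.05. For ApoE-Stab2-KO minus ApoE-KO there were 6, 18 with array weights, 2 among genes above the median level, 1 with the 2 groups alone, 0 with the replicate block and 0 to 12 with arrays left out, beside 2065 at an unadjusted p under 0.05. For ApoE-Stab2-KO minus ApoE-Stab1-KO there were 12, 21 with trend and robust settings, 4 with the 2 groups alone and 8 to 37 with arrays left out. The F-test called 135 genes, 88 with the replicate block and 87 to 197 with arrays left out. The replicate block changed no other call of a member. In the pairing check, an array correlated best with its own number in 6 of 33 pairs. Mylip, Smpdl3a and Nr1h3 have mean values below the median of the arrays and were left out of the fit to brighter genes. Of the 17 calls of listed genes in a pairwise comparison, those of Gramd1b (14 of 31 alternatives), Hmgcs1 for ApoE-Stab2-KO minus ApoE-KO (12), Lss for ApoE-Stab2-KO minus wildtype (6), and Cyp51 and Sqle for ApoE-Stab1-KO minus wildtype (1 each, the 2 groups alone) were lost in some, and the other 12 in none.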
